A study of Mus musculus with 6 samples.

Results

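A set of 10 genes of keratinized, biliary and progenitor-type epithelium was followed in mouse livers after acetaminophen (APAP) overdose. They were Sprr1a, the keratin genes Krt7, Krt8, Krt18, Krt19 and Krt23, and Sox9, Epcam, Spp1 and Cd24a. They were chosen by gene name, with their difference between APAP and saline already known, so those differences are given as a description and were not tested. All 10 names were found among the 34745 genes of the deposited table, and 10 of them passed the filter on low counts that kept 13734 genes. The livers were those of wild-type mice (male C57BL/6J mice, per the study's methods) that were fasted for 12 hours and injected with APAP at 300 mg/kg or with saline, and the APAP livers were taken 12 hours later. RNA was measured by bulk RNA-Seq in 2 APAP libraries (replicates 1 and 3) and 3 saline libraries (WT1, WT2 and WT3), and APAP replicate 2 was not analysed here. The labels do not state that the samples came from separate animals, so each p-value measures only the spread between these libraries.

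The deposited counts summed to between 13378445 and 15976339 per library. Levels are CPM, that is, counts per 1e+06 counts assigned to genes, scaled by the trimmed mean of M values (TMM), and 3 counts, used as a floor, equalled 0.176 to 0.269 CPM. The 2 groups also differed in sex-linked genes, which bears on every comparison below. Xist, the RNA that silences an X chromosome in female cells, was at 290, 914 and 882 CPM in WT1, WT2 and WT3 and at 0.764 and 1.73 CPM in APAP replicates 1 and 3. The Y-linked gene Ddx3y stood at 79.0 CPM in APAP replicate 1 and at 61.7 CPM in replicate 3, with no more than 1 count per saline library. This pattern of the saline libraries goes against the male sex that the study's methods give for the mice. Treatment and sex-linked expression therefore cannot be told apart in these libraries.

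Keratins form the intermediate filaments of epithelial cells from obligate pairs of a type I chain (KRT18, KRT19, KRT23) and a type II chain (KRT7, KRT8). Hepatocytes are known to build their filaments from KRT8 and KRT18, whereas bile duct cells also carry KRT7 and KRT19. SOX9 is a transcription factor of the biliary lineage, EPCAM an adhesion protein of ductal cells, SPP1 (osteopontin) a secreted ligand of integrins and CD44, and CD24A a small glycoprotein anchored to the cell surface. These proteins mark the ductular reaction, in which cells of ductal character expand in an injured liver. SPRR1A is a proline-rich precursor of the cornified envelope of squamous epithelium and is also known to be induced in stressed or injured non-epidermal cells. In bulk liver, a change in the number of cells of a type and a change in RNA per cell cannot be told apart.

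Each of the 10 genes was higher in both APAP libraries than in any saline library. The same non-overlap upwards was found for 24.0% of all genes tested. In the fit across all genes, 5 of the 10 genes had an adjusted p under 0.05 (Sprr1a, Krt8, Krt18, Sox9 and Spp1) and 0 were lower, beside 7.23% of all genes tested called in either direction, 3.70% higher and 3.53% lower (edgeR's quasi-likelihood test, Benjamini-Hochberg adjustment). Since the genes were chosen on this contrast, nothing is read from these counts. The median fitted log2 fold change was 2.88 over the 10 genes and 0.03 over all genes tested. The 10 genes fell into 2 patterns. Sprr1a, Krt8, Krt18, Sox9 and Spp1 stood at similar levels in the 2 APAP libraries, whereas Krt7, Krt19, Krt23, Epcam and Cd24a were high mainly in APAP replicate 1.

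**Figure D1:**
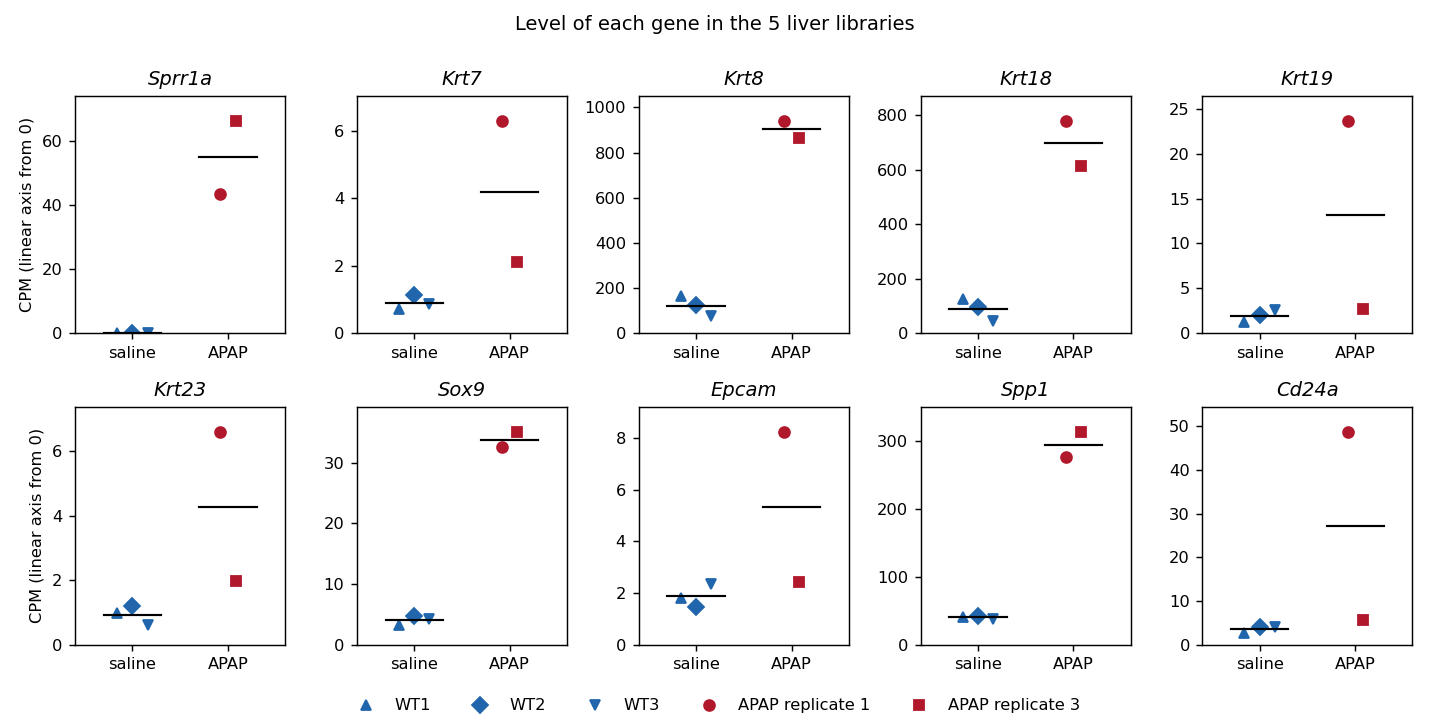
Level of each of the 10 genes in the 3 saline and 2 APAP libraries, in CPM on linear axes that start at 0, with 1 point per library and a line at each group mean. In the panels of Krt19 and Cd24a the point of APAP replicate 3 (2.72 and 5.56 CPM) lies close to the saline points, and the point of APAP replicate 1 (23.6 and 48.7 CPM) lies far above them.

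Sprr1a (chr3:92483952-92485895, minus strand, GRCm38) had 741 counts in APAP replicate 1 and 1072 in APAP replicate 3, and 0 counts in each of the 3 saline libraries. This amounts to 43.5 and 66.3 CPM, a mean of 54.9 ± 16.1 (SD, n = 2), against a gene listed at 0. Against the highest saline floor of 0.269 CPM, Sprr1a was at least 204-fold higher after APAP, and at least 162-fold and 246-fold higher in replicates 1 and 3 taken alone. None of the 50-base words of its transcript occurred in a transcript of another gene. The gene passed the filter on low counts through the APAP libraries alone.

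The transcription start of Sprr1a was examined because the gene went from no counts to at least 741 counts, and 2 other genes that were high in both APAP libraries are shown for comparison. The sequences are the RefSeq promoters of GRCm38.p6, 5′ to 3′ on the gene's strand, without bases that the annotation assigns to an exon. Capitals mark the AP-1 motif TGANTCA.
Sprr1a (chr3:92485896-92486131, minus strand): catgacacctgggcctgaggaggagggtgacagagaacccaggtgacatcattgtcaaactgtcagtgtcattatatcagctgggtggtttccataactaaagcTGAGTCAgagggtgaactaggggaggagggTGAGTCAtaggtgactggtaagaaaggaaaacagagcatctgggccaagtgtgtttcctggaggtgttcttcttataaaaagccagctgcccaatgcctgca
Krt18 (chr15:102027966-102028179, plus strand): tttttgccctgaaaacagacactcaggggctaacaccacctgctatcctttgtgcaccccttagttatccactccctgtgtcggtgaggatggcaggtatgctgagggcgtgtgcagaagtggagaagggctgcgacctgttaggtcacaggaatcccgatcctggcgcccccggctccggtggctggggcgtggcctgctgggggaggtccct
Spp1 (chr5:104434861-104435110, plus strand): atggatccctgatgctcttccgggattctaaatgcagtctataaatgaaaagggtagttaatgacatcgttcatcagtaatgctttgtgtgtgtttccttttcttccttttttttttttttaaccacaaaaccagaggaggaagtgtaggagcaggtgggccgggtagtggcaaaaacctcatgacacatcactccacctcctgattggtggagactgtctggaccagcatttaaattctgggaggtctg
The AP-1 motif is the binding sequence of FOS and JUN dimers. It occurred in the Sprr1a promoter 146 to 140 and 116 to 110 bases before the start, as TGAGTCA both times. Over all 32851 RefSeq promoters, 6.75% held the motif in the 250 bases before the start and 0.338% held it 2 or more times. Searched on both strands, the STAT motif TTCNNNGAA (7.02% of all promoters) and the TEAD motif CATTCC (12.6%) had no match in the 8 promoters found for 7 of the 10 genes, nor had AP-1 outside Sprr1a. Krt19, Sox9 and Cd24a had no entry. A match describes the letters only, and no binding was measured.

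Krt8 and Krt18, the hepatocyte keratin pair, lie 23.9 kb apart on chromosome 15 and were the genes with the most counts among the 10. Krt8 (chr15:101996711-102004342, minus strand) was at 939 and 865 CPM in APAP replicates 1 and 3 and at 163, 126 and 77.8 CPM in WT1, WT2 and WT3. The means were 902 ± 52.4 CPM (SD, n = 2) and 122 ± 42.8 CPM (SD, n = 3), a ratio of 7.38. The lower APAP library stood 5.30 times above the highest saline library. Krt18 (chr15:102028216-102032026, plus strand) was at 778 and 614 CPM after APAP, compared to 127, 98.2 and 45.5 CPM after saline, 7.73-fold higher by the means. The fitted log2 fold changes were 2.88 ± 0.35 (SE) for Krt8 and 2.95 ± 0.43 (SE) for Krt18. The saline libraries were ordered alike for both genes, with WT1 highest and WT3 lowest, and spanned 2.10-fold for Krt8 and 2.78-fold for Krt18. Krt8 shared 29.7% of its 50-base words with other genes, mainly the pseudogene Krt8-ps, so its counts are less certain than those of Krt18 (0.720%).

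Spp1 and Sox9 had the narrowest saline ranges of the 9 genes with saline counts, 1.13-fold and 1.44-fold from the lowest to the highest library. Spp1 (chr5:104435118-104441050, plus strand) reached 276 and 313 CPM in the APAP livers, whereas the saline livers stood at 40.1, 42.6 and 37.7 CPM. The fold of the means was 7.34 and the fitted log2 fold change 2.88 ± 0.21 (SE). Sox9 (chr11:112782224-112787760, plus strand) was at 32.5 and 35.0 CPM after APAP, compared to 3.23, 4.65 and 4.28 CPM after saline, an 8.33-fold difference of the means and a fitted log2 fold change of 3.05 ± 0.24 (SE). The ratio of APAP replicate 1 to replicate 3 was 0.882 for Spp1 and 0.929 for Sox9. The predicted gene Gm42793 overlaps 309 exon bases of Spp1 on the same strand, and 9.05% of the words of Spp1 occurred in it.

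The other 5 genes gave a different picture. Cd24a (chr10:43579169-43584262, plus strand) was at 48.7 CPM in APAP replicate 1 and 5.56 CPM in APAP replicate 3, against 2.60, 3.92 and 3.94 CPM in WT1, WT2 and WT3. Krt19 (chr11:100140810-100148665, minus strand), a keratin of ductal cells, was at 23.6 and 2.72 CPM after APAP, compared to 1.25, 2.06 and 2.54 CPM after saline. For these 2 genes APAP replicate 3 exceeded the highest saline library by a ratio of 1.41 and 1.07, respectively. Epcam (chr17:87635979-87651106, plus strand) was at 8.23 and 2.41 CPM after APAP, compared to 1.79, 1.46 and 2.34 CPM after saline. The gap between its lower APAP library and its highest saline library was the smallest of the 10 genes, a ratio of 1.03. Krt7 (chr15:101411043-101430313, plus strand), the type II keratin of ducts, was at 6.29 and 2.10 CPM after APAP, compared to 0.717, 1.13 and 0.868 CPM after saline. Krt23 (chr11:99477974-99493137, minus strand), an epithelial type I keratin, was at 6.58 and 1.98 CPM after APAP, compared to 0.986, 1.20 and 0.601 CPM after saline. The 5 genes rest on few reads, with at most 59 counts per gene in any saline library.

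The 2 patterns were drawn from the levels in the 2 APAP libraries, so the ratios between these libraries describe the grouping and do not test it. Replicate 1 exceeded replicate 3 by 8.75 times for Cd24a (exact 95% interval from counting error, 7.029 to 10.996), by 8.68 times for Krt19 (6.35 to 12.1), by 3.41 times for Epcam (2.378 to 4.9997), by 3.33 times for Krt23 (2.23 to 5.09) and by 2.99 times for Krt7 (2.02 to 4.54). The median ratio over all genes tested was 0.984, and 7.70% of them were at least 2 times higher in replicate 1. Ratios as large as those of Cd24a and Krt19 were found for 0.751% and 0.758% of the genes tested. The ratio was 1.09 for Krt8, 1.27 for Krt18 and 0.657 for Sprr1a, which was the lowest of the 10 genes. Without molecular identifiers, these intervals reflect counting error alone, and 2 libraries of 1 group give no test between animals.

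**Figure D2:**
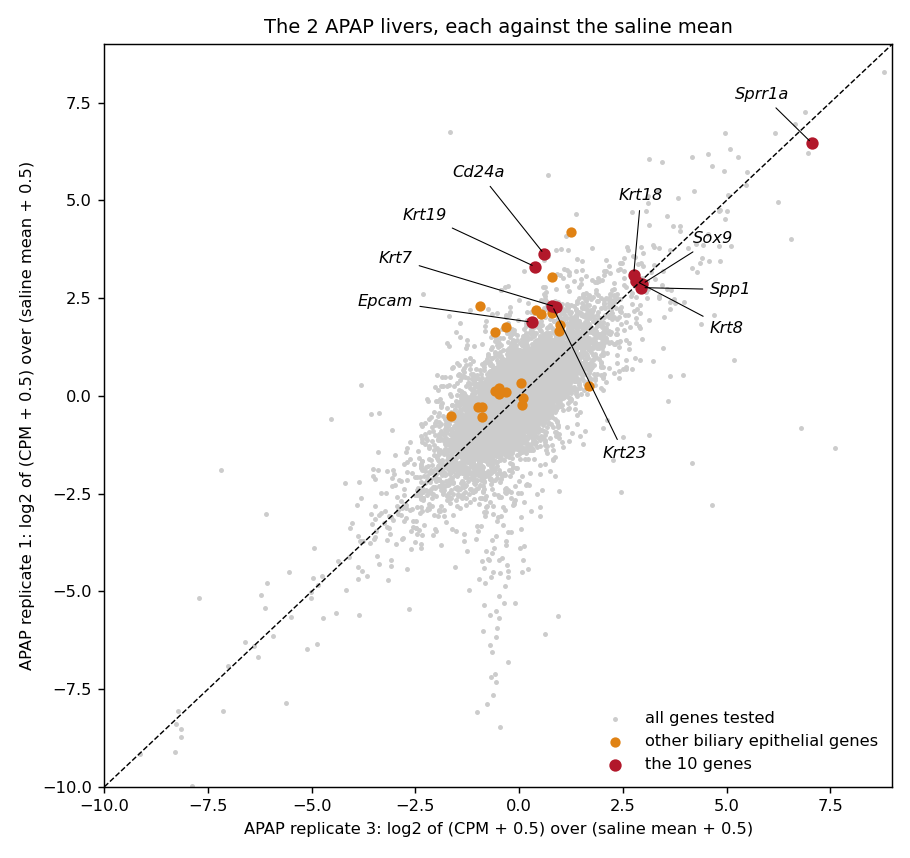
Each APAP library against the saline mean, as log2 of (CPM + 0.5) over (saline mean + 0.5), for APAP replicate 3 (horizontal) and APAP replicate 1 (vertical), with all genes tested in grey, other biliary epithelial genes in orange, the 10 genes in red and the line of equality dashed. Krt8, Krt18, Sox9, Spp1 and Sprr1a lie near the line, whereas Cd24a, Krt19, Krt7, Krt23 and Epcam lie above it together with 9 biliary genes that were at least 2 times higher in replicate 1.

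The fitted values without 1 APAP library follow from these ratios and are not further evidence. Without APAP replicate 1, the fitted log2 fold change was 0.47 for Krt19, 0.67 for Cd24a, 0.37 for Epcam, 1.20 for Krt7 and 1.09 for Krt23. Without APAP replicate 3 the values were 3.57, 3.78, 2.13, 2.77 and 2.81, respectively. For Sox9, Spp1, Krt8 and Krt18, removal of APAP replicate 1 left 3.11, 2.97, 2.83 and 2.77. No value changed sign in the 5 fits without 1 library or in the 7 or 8 fits with another tool, scaling or filter.

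**Figure D3:**
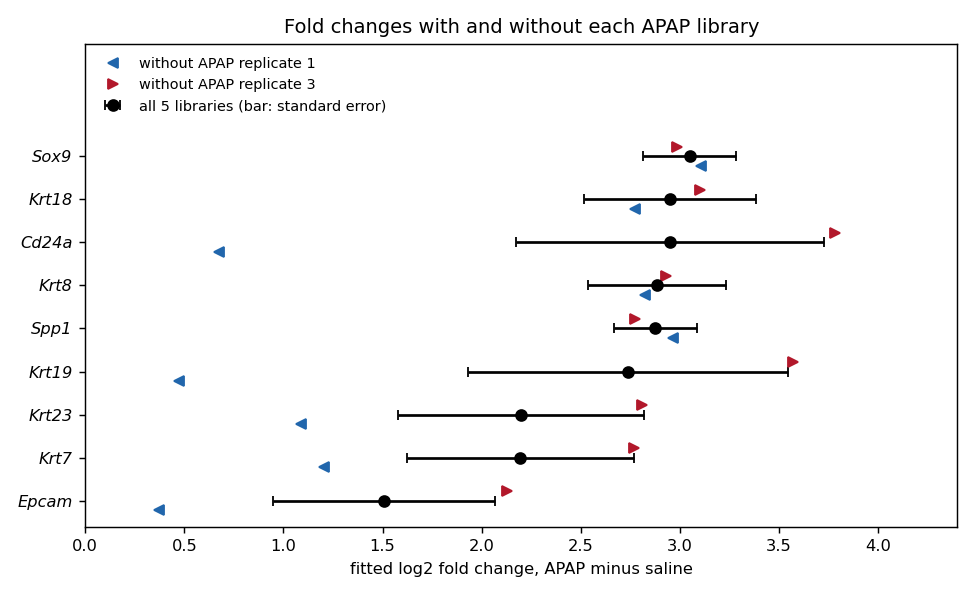
Fitted log2 fold change of APAP over saline for 9 of the 10 genes from all 5 libraries (black points, bars of 1 standard error), without APAP replicate 1 (blue) and without APAP replicate 3 (red). Sprr1a is left out because its saline counts are 0 and its fitted value is no bound. The blue and red points lie close together for Sox9, Krt18, Krt8 and Spp1 and far apart for Cd24a (0.67 and 3.78) and Krt19 (0.47 and 3.57).

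Levels of different genes were compared per kilobase of exon. In APAP replicate 1 the order was Krt18 (542 CPM per kb), Krt8 (480), Spp1 (168), Sprr1a (54.0), Cd24a (18.9), Krt19 (12.7), Sox9 (7.86), Krt23 (4.20), Epcam (3.75) and Krt7 (0.892). In APAP replicate 3, Krt8 (442 CPM per kb) and Krt18 (427) were followed by Spp1 (190), Sprr1a (82.2), Sox9 (8.46), Cd24a (2.16), Krt19 (1.47), Krt23 (1.26), Epcam (1.10) and Krt7 (0.298). Krt8 and Krt18 thus overlapped between the APAP libraries, and Sox9, Cd24a and Krt19 changed places. Spp1 ranked directly behind the keratin pair in each of the 5 libraries, at 22.9 to 25.9 CPM per kb after saline. Below it, Cd24a, Krt19, Epcam and Sox9 lay between 0.666 and 1.53 CPM per kb in the saline libraries with overlapping ranges. Krt23, at 0.384 to 0.764 CPM per kb, overlapped them in part. Sprr1a went from the last place after saline to the fourth after APAP. The ranks of short or long transcripts depend on the length used, since coding sequence alone put Sprr1a at a mean of 127, Cd24a at 92.2 and Krt7 at 3.06 CPM per kb in the APAP group.

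Krt8 and Krt18 made up most of the keratin RNA in every library. Of the keratin level per kilobase summed over 51 keratin genes, they held 98.0% and 99.4% in the APAP livers and 98.8%, 98.2% and 96.4% in WT1, WT2 and WT3. The ratio of Krt8 to Krt18 per kilobase was 0.886 and 1.03 in the APAP livers, beside 0.946, 0.940 and 1.26 in the saline livers, and the 2 groups overlapped. With coding length, the ratio was 1.04 and 1.22 after APAP and 1.11, 1.11 and 1.48 after saline.

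**Figure D4:**
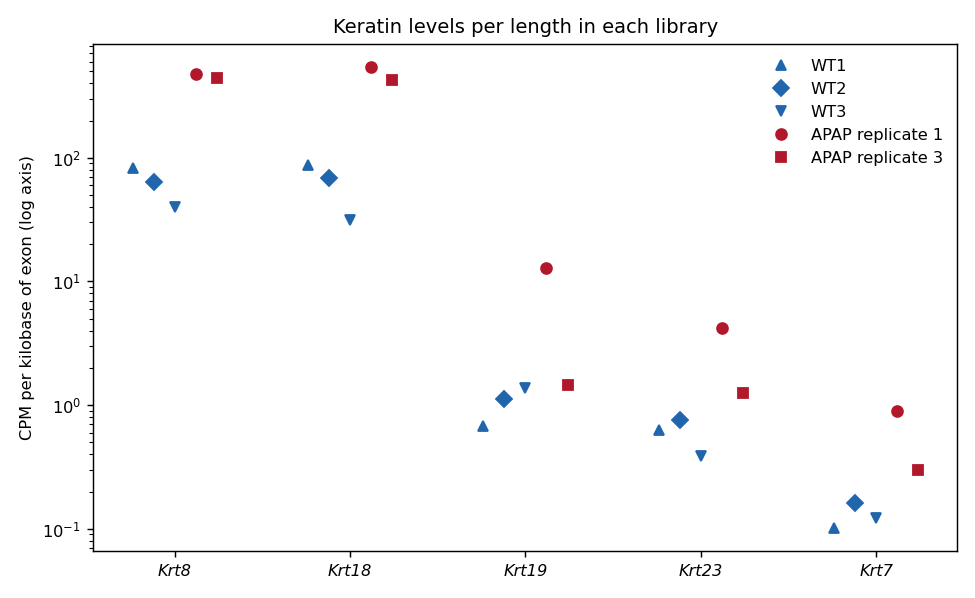
Level of the 5 keratin genes in each library, in CPM per kilobase of exon on a log axis, saline libraries in blue and APAP libraries in red. Krt8 and Krt18 lie together near 32 to 88 after saline and 427 to 542 after APAP, and Krt19, Krt23 and Krt7 lie below 2 in every library except Krt19 (12.7) and Krt23 (4.20) in APAP replicate 1.

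Outside these 5 genes the keratin family gave few reads. Of the 51 keratin genes, 27 on chromosome 11 and 24 on chromosome 15, 29 had no count in any library and 41 had no count in any saline library. Of the 46 other keratin genes, 2 could be tested. Krt5, the keratin of basal squamous cells, rose after APAP, from no count in the 3 saline libraries to 2.41 and 3.03 CPM, at least 10.1-fold (adjusted p = 0.018). Krt10, a keratin of differentiated epidermis, was at 1.23 and 0.989 CPM after APAP and 1.52, 0.465 and 0.668 CPM after saline (log2 fold change 0.35 ± 0.66 SE, adjusted p = 0.79). Keratins of stratified epithelium such as Krt1, Krt4, Krt6a, Krt13, Krt15, Krt16 and Krt17 had at most 3 counts in each library. Krt5 passed the filter on low counts through the APAP libraries alone, like Sprr1a, and rests on 41 and 49 counts. Its call was lost without APAP replicate 1, APAP replicate 3 or WT2.

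The neighbours of Sprr1a in the epidermal differentiation complex of chromosome 3 were next counted. Within 500 kb on each side lay 55 genes, of which 34 had no count in any library, 12 exceeded 3 counts in any library and 4 could be tested. Of the 12, 9 had no count in any saline library (Lce3d, Lce3c, Lce1f, Lce1d, Lce1g, Sprr2i, Sprr2g, Sprr2b and Ivl, cornified envelope genes named here after their values were seen). In the whole table, 2.62% of the 16887 genes above 3 counts in any library had no saline count. That share spans genes of every level, whereas the 9 genes, mostly with few reads, passed the cut through the APAP libraries alone. Nothing is therefore read from 9 of 12 beside it. The 9 genes had between 0 and 126 counts in an APAP library, against 741 and 1072 for Sprr1a. In the list of cornified envelope genes, 33 of 34 were in the table, 25 had at most 3 counts in each library, and 4 were tested. Of these, 0 were called by the quasi-likelihood test, 2 had an unadjusted p under 0.05, and DESeq2 and edgeR's other tests called 2. Tgm1, a transglutaminase that crosslinks the envelope, was at 8.23 and 12.8 CPM after APAP, compared to 15.3, 5.65 and 6.68 CPM after saline. Lor, the envelope protein loricrin, was at 2.76 and 3.83 CPM after APAP, compared to 0.986, 0.399 and 1.20 CPM after saline (log2 fold change 1.93 ± 0.56 SE, adjusted p = 0.089). Chosen after its values were seen, Ivl, the envelope protein involucrin, was at 7.40 CPM in APAP replicate 1, 0.309 CPM in APAP replicate 3 and 0 in the saline libraries.

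Genes of the same pathways were described by list, without the 10 genes. Over 128 genes tested in these lists, 14 rose and 2 fell at an adjusted p under 0.05, beside the 3.70% and 3.53% of all genes tested. The lists were chosen with earlier results of these data known, so nothing is read from these counts or from those of each list. In the progenitor and ductular reaction list, 5 of 22 genes rose and 1 fell, with a median log2 fold change of 1.07. Tnfrsf12a, the receptor of the progenitor mitogen TWEAK, rose from 11.6, 6.24 and 18.3 CPM to 167 and 157 CPM (log2 fold change 3.75 ± 0.43 SE, adjusted p = 0.0061). Afp, the fetal plasma protein, rose from between 0.399 and 0.448 CPM to 6.93 and 6.61 CPM (4.004 ± 0.382 SE, adjusted p = 0.0040). Its saline counts were 5, 6 and 6, so Afp passed the filter on low counts through the APAP libraries alone. Klf6, a zinc finger factor, rose from 13.98, 14.15 and 22.51 CPM to 95.8 and 232 CPM (3.28 ± 0.42 SE, adjusted p = 0.0094). Lcn2, the siderophore-binding lipocalin that is also an acute phase gene, rose from 11.8, 9.50 and 62.1 CPM to 2045 and 661 CPM (5.60 ± 0.97 SE, adjusted p = 0.023). Igf2bp2, an RNA-binding protein and the fifth of these genes, reached 7.29 and 5.87 CPM from 1.61 to 2.07 CPM. Lgr5, a receptor of R-spondins and a Wnt target, fell from 12.5, 6.51 and 3.14 CPM to 0.118 and 0.371 CPM (-4.88 ± 0.84 SE, adjusted p = 0.022). Its APAP counts were 2 and 6, so Lgr5 passed that filter through the saline libraries alone. Hnf4a, the hepatocyte factor, was at 415 and 706 CPM after APAP, compared to 871, 960 and 1424 CPM after saline (-0.95 ± 0.37 SE, adjusted p = 0.17). The calls of Tnfrsf12a and Afp held in each of the 5 fits without 1 library, that of Klf6 was lost without WT2, and those of Lcn2, Lgr5 and Igf2bp2 were lost without 3 or more of the 5 libraries taken in turn.

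Some genes of the biliary epithelial list showed the division seen for Krt19 and Cd24a. Of 22 genes tested, 2 rose and 0 fell, with a median log2 fold change of 0.68. Muc1, a mucin of ductal surfaces, was at 22.3 and 2.47 CPM after APAP, compared to 0.986, 0.531 and 0.735 CPM after saline (4.05 ± 0.87 SE, adjusted p = 0.041). Bicc1, an RNA-binding protein of ducts, was at 11.3 and 6.80 CPM against 2.69, 3.59 and 3.47 CPM (1.47 ± 0.34 SE, adjusted p = 0.049). The call for Bicc1 was lost in each of the 5 fits without 1 library, and that for Muc1 was kept only without APAP replicate 3. Among the 22 genes, 19 were higher in APAP replicate 1 than in replicate 3 and 9 were at least 2 times higher, beside 48.1% and 7.70% of all genes tested. An excess in replicate 1 was not particular to this list. Of 10 neutrophil markers tested, 10 were higher in replicate 1 and 4 at least 2 times higher, whereas 3 of 16 macrophage and monocyte markers were higher. Omitting APAP replicate 1 brought the list's median to -0.13 over 22 genes, and omitting APAP replicate 3 brought it to 1.68 over 26 genes. With 1 APAP library left, the filter admits a gene through that library alone, so these medians do not cover the same genes. The most abundant genes of the list, Onecut2 and Wwc1, were at 159 and 90.7 CPM in APAP replicate 1 and at 96.7 and 55.3 CPM in replicate 3, beside saline ranges of 118 to 193 CPM for Onecut2 and 77.3 to 134 CPM for Wwc1. Genes chosen after their values were seen include Prom1, a stem cell surface protein, at 14.2 and 1.05 CPM after APAP and 1.60 to 3.41 CPM after saline, and Mmp7, a protease of ductal epithelium from the progenitor list, at 53.9 and 1.24 CPM after APAP and 0.269 to 1.002 CPM after saline.

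YAP, with its partners of the TEAD family, and Notch are pathways known to act on Sox9 and Spp1 in the liver. In the YAP and TEAD list, 2 of 23 genes rose and 1 fell, with a median log2 fold change of 0.30. Cyr61, a matricellular YAP target, rose from 7.89, 8.57 and 3.94 CPM to 54.4 and 47.3 CPM (2.90 ± 0.34 SE, adjusted p = 0.0067), and its call held in each of the 5 fits without 1 library. Ctgf, also a secreted YAP target, rose from 7.62, 14.6 and 15.2 CPM to 39.2 and 56.9 CPM (1.94 ± 0.34 SE, adjusted p = 0.023). Vgll4, which competes with YAP for TEAD, fell from 21.3, 28.5 and 28.6 CPM to 12.0 and 11.1 CPM (-1.18 ± 0.23 SE, adjusted p = 0.032). Yap1 itself was at 110 and 96.8 CPM after APAP and 72.0, 69.6 and 81.9 CPM after saline (0.47 ± 0.20 SE, adjusted p = 0.20), and Lats1, the kinase that inhibits it, was at 47.1 and 47.2 CPM beside 43.0 to 52.8 CPM. In the Notch list, 2 of 20 genes rose, both transcriptional targets, with a median of 0.27. Hes1 rose from 3.76, 4.92 and 5.01 CPM to 12.1 and 24.1 CPM (1.98 ± 0.35 SE, adjusted p = 0.024). Hey1 rose from 0.538, 0.797 and 0.401 CPM to 8.70 and 1.98 CPM (3.18 ± 0.70 SE, adjusted p = 0.044). With 6, 12 and 6 saline counts, Hey1 would not have passed the filter on low counts without its APAP counts. The receptor Notch2 was at 57.1 and 66.5 CPM after APAP and 40.6 to 59.9 CPM after saline, and the protease Adam10, which cleaves Notch, was at 40.8 and 39.6 CPM beside 15.4 to 32.1 CPM. The calls of Ctgf, Vgll4, Hes1 and Hey1 were lost without 3 or more of the 5 libraries taken in turn.

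Filament partners and receptors were counted in the same way. Of 14 keratin crosslinker and desmosome genes, 1 rose and 0 fell, with a median of 0.54. This was Sqstm1, the autophagy receptor p62 found in keratin inclusions, at 891 and 1025 CPM after APAP and 492, 331 and 302 CPM after saline (1.35 ± 0.30 SE, adjusted p = 0.044). Trp53inp1, an autophagy and p53 response gene that the list also holds, was at 129 and 284 CPM beside 376, 377 and 1003 CPM (adjusted p = 0.17). Of 7 other intermediate filament genes, 1 rose, with a median of 0.61. This was Lmna, which encodes the nuclear lamins A and C, from 35.3, 30.2 and 34.9 CPM to 78.1 and 85.5 CPM (1.29 ± 0.19 SE, adjusted p = 0.015), whereas Des, the muscle and stellate cell filament, was at 18.2 and 35.0 CPM beside 7.26 to 73.4 CPM. Of 19 receptors and partners of osteopontin, CD24 and EpCAM, 0 were called by the quasi-likelihood test, 7 had an unadjusted p under 0.05, edgeR's likelihood ratio and exact tests called 5 each and DESeq2 called 4. Itgb1, an integrin chain that binds osteopontin, was at 219 and 238 CPM beside 183 to 217 CPM. Psen2, a subunit of the protease that cleaves EpCAM, was at 44.07 and 33.01 CPM beside 221, 162 and 75.5 CPM (-1.99 ± 0.47 SE, adjusted p = 0.052). The calls of Sqstm1 and Lmna were lost without 3 or more of the 5 libraries taken in turn.

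**Figure D5:**
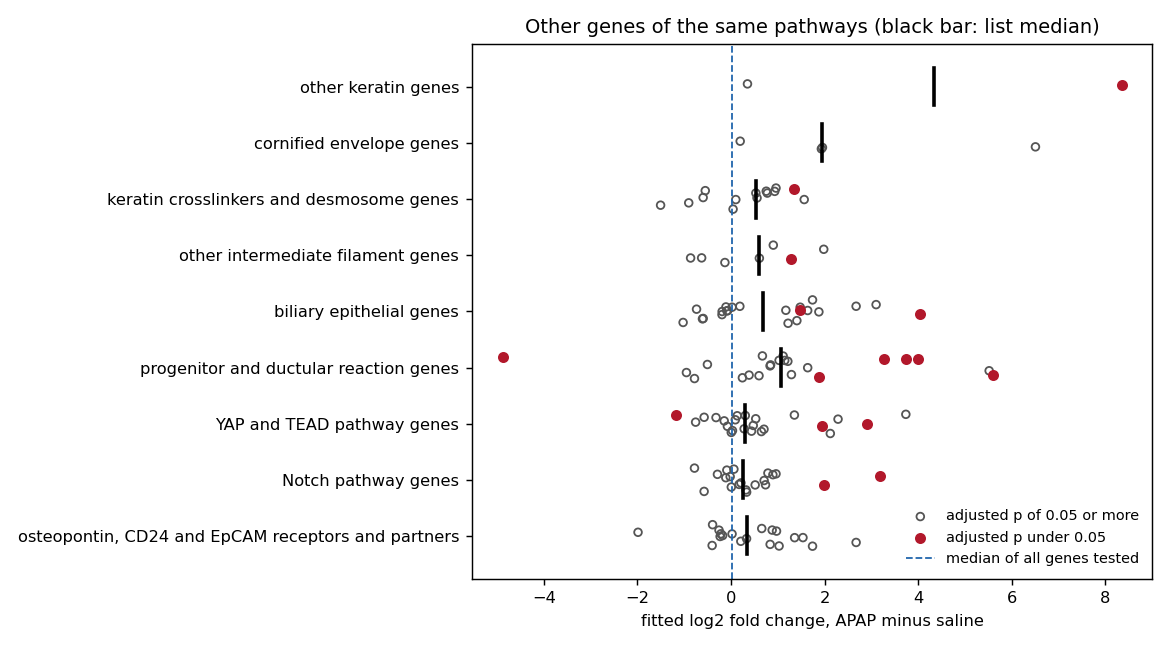
Fitted log2 fold change of APAP over saline for the tested genes of 9 lists, without the 10 genes, with filled points at an adjusted p under 0.05, a black bar at each list's median and a dashed line at the median of all genes tested (0.03). The right-most points of the top 2 lists, Krt5 and Sprr2i, had no saline count, so their fitted values are no bounds, and with both at their lower bounds the medians of those lists are 1.84 and 1.71 in place of 4.35 and 1.94.

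The livers also differed in markers of other cell types, whose part in the values above was not tested. The sum of 7 cholangiocyte markers outside the 10 genes was 39.1 CPM in APAP replicate 1, 20.1 CPM in APAP replicate 3 and 24.1 to 30.3 CPM after saline. Of 4 tested, 0 were called (2 at an unadjusted p under 0.05, 2 by edgeR's other tests and 1 by DESeq2), and the secretin receptor Sctr had at most 3 counts in each library. Pkhd1, a protein of ductal cilia, was at 6.35 and 3.96 CPM after APAP, beside 6.61 to 8.77 CPM after saline. Of the 4 tested, 2 lay higher in both APAP libraries than in any saline library and 1 lay lower. The 2 were Tspan8 (10.3 and 3.15 CPM beside 1.67 to 2.33 CPM) and Cldn7 (3.06 and 0.927 CPM beside 0.133 to 0.627 CPM). Both were named after their values were seen, and Cldn7 passed the filter on low counts through the APAP libraries alone. The sum of hepatocyte markers was 94670 and 138936 CPM after APAP and 144449 to 196302 CPM after saline, and 2 of 13 fell (Ass1 and Apoa2, named after their values were seen). Over all genes tested, 20.1% lay lower in both APAP libraries than in any saline library and 24.0% lay higher. Of the 13, 8 lay lower in this way and 2 lay higher. The 2 were Fgb, a fibrinogen chain, with a log2 fold change of 0.77 (adjusted p = 0.25), and Hpx, the heme carrier hemopexin, with 0.67 (adjusted p = 0.32), both named after their values were seen. The sum is mostly albumin. Alb was at 51544 and 89798 CPM after APAP and 95101 to 129117 CPM after saline, and Apob was at 6122 and 7328 CPM beside 7605 to 9449 CPM. The neutrophil list summed to 135 and 84.2 CPM after APAP and 5.85 to 9.42 CPM after saline. Of 10 tested, 8 rose, beside 3.70% of all genes tested. Camp, Ngp, Mmp8, Retnlg and Cxcr2, named after their values were seen, had at most 10 counts in any saline library. They passed the filter on low counts through the APAP libraries alone. S100a8, with 2, 6 and 15 saline counts, would not have passed without its APAP counts. Nothing is therefore read from 8 of 10. S100a9 rose from between 1.129 and 2.004 CPM to 41.5 and 30.3 CPM (adjusted p = 0.0018). Csf3r rose from between 1.79 and 3.54 CPM to 18.6 and 14.4 CPM (adjusted p = 0.010). The number of neutrophil genes called was 2 without WT2, 3 without APAP replicate 1, 5 without APAP replicate 3 and 6 without WT1 or WT3. The number of hepatocyte genes called was 1 without WT1 or WT3 and 0 without any of the other 3 libraries.

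Tissues that carry the same keratins were checked by their own markers. Mesothelial markers outside the 10 genes summed to 109 and 63.9 CPM after APAP and 15.3 to 52.8 CPM after saline, of which Cdh1, shared with other epithelia, made up 99.5 and 56.5 CPM. The mesothelial mucin Muc16 had at most 3 counts in each library, and Gpm6a was at 1.65 and 3.34 CPM beside 1.17 to 3.06 CPM. Msln, named after its values were seen, was at 3.06 and 1.55 CPM beside 0.401 to 0.986 CPM. Of 4 genes tested, 0 were called (2 at an unadjusted p under 0.05, 0 by the other tests). Of these 4, 2 (Cdh1 and Msln) lay higher in both APAP libraries than in any saline library and 0 lower. Squamous markers summed to 125 and 104 CPM after APAP and 104 to 138 CPM after saline, most of it Perp (119 and 96.4 CPM beside 103 to 134 CPM), Sfn stood at 1.29 and 2.60 CPM beside 0.664 to 1.88 CPM, 9 of 16 had at most 3 counts in each library, and Krt5 was the 1 of 4 that rose. Gallbladder and gastrointestinal markers summed to 44.9 and 21.1 CPM beside 7.17 to 45.4 CPM, and 7 of 14 had at most 3 counts in each library. Of its 3 genes tested, 2 rose. Muc5ac, a gastric mucin, was at 4.47 and 1.73 CPM and 0 in each saline library, and Tff3, a trefoil peptide named after its values were seen, was at 2.70 and 2.41 CPM beside 0 to 0.199 CPM, whereas Lgals4 was at 35.1 and 16.8 CPM beside 6.45 to 44.5 CPM. Pancreatic acinar markers summed to 5.17 and 3.28 CPM beside 6.84 to 10.2 CPM, with 1 of 2 fallen, Cela2a, which had no count after APAP, while Cela1 was at 2.76 and 3.28 CPM beside 1.94 to 7.53 CPM. Muc5ac, Tff3 and Krt5 passed the filter through the APAP libraries alone, and Cela2a through the saline libraries alone. With 1 library left out in turn, at most 1 gene was called in each of the squamous, gastrointestinal and pancreatic lists, and 0 without APAP replicate 1 or WT2.

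Markers of macrophages, stromal cells, lymphocytes and red cells were also summed. Macrophage and monocyte markers summed to 389 and 633 CPM after APAP and 360 to 499 CPM after saline, with 2 of 16 risen (Ccr2 and Lgals3, named after their values were seen, both calls lost in each of the 5 fits without 1 library), Clec4f at 58.9 and 82.3 CPM beside 78.7 to 91.8 CPM, and Cd5l at 55.6 and 120 CPM beside 63.6 to 93.8 CPM. Stellate and portal fibroblast markers summed to 376 and 388 CPM beside 363 to 397 CPM. Of these, 1 of 11 rose (Col1a1, named after its values were seen), and its call was lost in each of the 5 fits without 1 library. In the same list, Dcn was at 193 and 206 CPM beside 198 to 252 CPM, and Reln was at 30.7 and 67.0 CPM beside 46.0 to 59.0 CPM. Acta2, the smooth muscle actin of activated stellate cells, was also chosen after its values were seen and was at 42.7 and 5.38 CPM after APAP, the same order of the 2 livers as for Krt19 and Cd24a, and at 2.14 to 4.52 CPM after saline. B and T cell markers summed to 15.1 and 20.6 CPM after APAP and 17.6 to 147 CPM after saline, where Ighm reached 135 CPM in WT2 and Cd79a lay between 0.134 and 2.15 CPM in all libraries. Erythroid markers summed to 45.8 and 147 CPM beside 65.0 to 81.3 CPM, with Hbb-bs at 24.1 and 71.8 CPM and Alas2 at 3.76 and 28.5 CPM in the APAP libraries. In these last 2 lists, 0 of 7 genes each were called by the quasi-likelihood test, edgeR's other tests or DESeq2, and 0 and 1 had an unadjusted p under 0.05.

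The genes whose levels ran most like those of Sprr1a were listed by the mean absolute difference of log2(CPM + 1), centred on the saline mean, over the 5 libraries. Among genes with at least 10 CPM in the higher group they were Ddx3y (0.21), Eif2s3y (0.23), Efr3b (0.23), Hspa1l (0.41) and Slc7a11 (0.43). Efr3b, an anchor of a phosphoinositide kinase at the plasma membrane, was at 102 and 83.1 CPM after APAP and 0.266 to 0.448 CPM after saline. Hspa1l, a chaperone of the HSP70 family, was at 48.8 and 118 CPM beside 0.664 to 1.87 CPM, and Slc7a11, the cystine importer, was at 42.0 and 17.6 CPM beside at most 1 count per saline library. Ddx3y and Eif2s3y are Y-linked. Eif2s3y was at 51.9 and 35.4 CPM, Kdm5d at 27.7 and 15.5 CPM and Uty at 12.7 and 13.7 CPM in the APAP libraries, each with at most 1 count per saline library. In these 5 libraries, near or full absence from saline and over 10 CPM after APAP were thus shared by Sprr1a and Y-linked genes. The autosomal genes Slc7a11 (at most 1 count per saline library) and Efr3b (5, 4 and 4 counts) also showed this.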

How the data were processed

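Per the labels, libraries were prepared from total liver RNA with a SMARTER mRNA-Seq kit. The authors deposited unnormalized read counts of each gene, which the study's methods credit to HISAT2, an aligner. The submitters' processing notes name GRCm38 (mm10). The counting step, annotation and strand setting are not given further in the sources used here, so reads of overlapping antisense genes cannot be told apart (77 exon bases of Krt7, 101 of Krt8). The 5 columns of FPKM were not used. Columns WT1 to WT3 were taken for saline, since APAP stands in the names of the others.

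The fit was made in edgeR 4.0.16 under R 4.3.3 (filterByExpr with minimum count 10 and total 15, TMM, quasi-likelihood test, Benjamini-Hochberg adjustment over 13734 genes, biological coefficient of variation 33.3%). Each SE of this fit is the absolute log2 fold change divided by the square root of the F statistic of the quasi-likelihood test. The code was tested on simulated data. Alternatives were DESeq2 1.42.0, the exact and likelihood ratio tests of edgeR, RLE and upper-quartile factors, library size only, no filter, at least 10 counts in every library, the study's thresholds, other gene lengths, and leaving out each library. Of the gene identifiers, 34267 were in GENCODE M21, whose exons gave the lengths, and 27682 had the same start, end and strand. Shared sequence gives, for the longest coding transcript, the percent of 50-base words found in other genes. Python 3.11.15, scipy 1.17.1 and matplotlib 3.10.9 were also used.

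The genes and lists were chosen with earlier results of these data known. Named were each of the 10 genes, up to 4 called genes per list and direction, the 2 most abundant genes of each list, sex-linked genes and the 5 genes nearest to Sprr1a. Others are marked as chosen after their values were seen. The values of 1 gene that this rule names are not reported here.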

Additional observations from a re-analysis of the deposited data

How the results depend on the processing

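With 2 APAP libraries the number of calls depended on the tool. The fit called 993 of all genes, 5 of the 10 genes and 16 genes of the pathway lists. DESeq2 called 2093, 9 and 38, the likelihood ratio test called 1835, 9 and 34, and the exact test called 1776, 9 and 32. Each of these missed Epcam alone among the 10 genes. The study's thresholds (fold change of at least 1.5, unadjusted P under 0.05) took in 3228, 10 and 56. No filter on low counts gave 9 of the 10 genes and 26 list genes, and library size only gave 31 list genes. With library size only, the median log2 fold change of all genes was 0.42 and 77.8% of calls were higher, beside 51.2% with TMM. At least 10 counts in every library kept 11686 genes and left out Sprr1a, Krt7 and Krt23. Leaving out 1 library at a time gave 165 to 922 calls over all genes, 3 to 7 of the 10 genes and 3 to 14 list genes. Without WT2, Krt8 and Krt18 lost their calls, and 165 genes, 3 of the 10 and 3 list genes were called. Without APAP replicate 1, Krt18 lost its call, and 235 genes, 4 of the 10 and 5 list genes were called. Without APAP replicate 3, Krt19 and Cd24a gained a call, and 401 genes, 7 of the 10 and 11 list genes were called. Without WT1, 510 genes and 10 list genes were called. Sox9, Spp1 and Sprr1a were called in each fit that tested them. Where an arm was left with 1 library, that library was assumed to vary like the other group. The 10 genes were chosen on this contrast, so calls kept, gained or lost among them are a description and no test. Sprr1a passed the filter on low counts through the APAP libraries alone. The gains of Krt19 and Cd24a follow from their higher level in APAP replicate 1. Of the other values under alternatives, 122 moved by less than the spread between replicates, 15 moved by more and 0 changed sign. No paired analysis was possible because the saline columns carry no replicate number that the labels tie to a sample.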
